A study of Mus musculus with 12 samples.

Results

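Head muscle progenitors of the mouse embryo were compared between embryonic day 11.5 (E11.5) and the day before (E10.5), using 2 arrays per stage, 4 of the 12 arrays of the series. These were all the arrays labelled as head muscle progenitors at those stages, and the other 8, from head at E9.5 and from trunk at E9.5, E10.5 and E11.5, entered the filter, the choice of probe sets and the estimate of the spread, and are given beside the head values for some genes. Every group, head and trunk alike, was of the ICR strain and carried Myf5Cre together with RosaYFP, so no group lacked either allele. In such embryos the Myf5 gene drives Cre recombinase, which switches on a yellow fluorescent protein in cells that express Myf5 and in their descendants. Head tissue was dissociated, fluorescent cells were collected by flow cytometry, and their amplified RNA was hybridised to Affymetrix arrays. A sort of this kind collects all labelled cells, whether or not they are still progenitors. Values are signals in the array's intensity units. Nothing in the labels tells if both arrays of a stage were made from different embryos, litters or pools. Each p-value therefore reflects the spread of these particular samples, and how much of that spread is technical is not known. The head arrays of E10.5 differed widely in Xist, with signals of 163 on replicate 1 and 5006 on replicate 2.

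Skeletal muscle forms when a small family of basic helix-loop-helix factors, Myf5, Myod1, Myog and Myf6, commits cells to the muscle fate and then switches on the genes of the contractile apparatus. These factors bind short E-box sequences and act together with Mef2 factors. In the trunk their upstream regulators include Pax3, whereas head muscle derives largely from pharyngeal mesoderm, where Tbx1, Isl1, Tcf21 and Msc act. As myoblasts leave the cell cycle they assemble sarcomeres, the repeating units of thick and thin filaments anchored at Z-discs, and the membrane systems that couple excitation to calcium release.

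The 4 arrays had median signals of 109 to 110, and the arrays of a stage correlated with r = 0.957 at E10.5 and 0.965 at E11.5, across probe sets, which are not independent replicates. One array stood apart in a gene of sex chromosome dosage. Xist, the RNA of the inactive X chromosome, had a signal of 163 on head E10.5 replicate 1 (and 82.6 on trunk E10.5 replicate 1), against 5006 on replicate 2 and 7300 and 8801 at E11.5. The Y-linked gene Kdm5d gave 548 and 481 at E10.5 and 182 and 179 at E11.5, so transcripts of both sex chromosomes differed between stages, and their part in the results was not tested beyond the counts given without that array. Embryonic globin also differed: Hbb-bh1 gave 5502 and 4911 at E10.5, 4849 on E11.5 replicate 1 and 639 on E11.5 replicate 2. Markers of the labelled identity were well above the median on the 4 arrays: the muscle regulator Myf5, with signals of 1772 to 2294, and the pharyngeal regulators Isl1 (3080 to 5482) and Tbx1 (587 to 787).

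Between the days, 76 genes changed, among them the muscle determination factor Myod1 and the differentiation factor Myog, both higher at E11.5, and the epithelial keratin Krt8, lower at E11.5. These 76 are 0.984% of the 7722 genes tested by limma (adjusted p under 0.05, Benjamini-Hochberg over all genes tested). Of them 41 were higher at E11.5 (0.531%) and 35 were lower (0.453%). In all 76 the arrays of one stage lay above both arrays of the other, whereas over all tested genes 24.0% lay wholly higher and 20.7% wholly lower at E11.5. At an unadjusted p under 0.05 there were 697 higher (9.03%) and 608 lower genes (7.87%). The median change over all tested genes was 0.02 on the log2 scale. The count depended strongly on single arrays. It was 6 without head E10.5 replicate 1, the array of low Xist, 165 without head E10.5 replicate 2, 18 without head E11.5 replicate 1 and 6 without head E11.5 replicate 2. The 6 genes that passed without head E10.5 replicate 1 were all among the 76 (Kcne4, Myod1, Ank1, Ryr1, Erbb3 and AI506816), and those of the 76 that passed without head E11.5 replicate 2 were Tuba4a, Myod1, Ank1 and Mink1. The count also fell without either trunk E10.5 array, although these arrays enter only the filter, the choice of probe sets and the spread. Only Myod1 and Ank1 passed under every one of the 24 alternative settings tried for them, and Erbb3 passed under 22. These settings kept a single probe set per gene. Another probe set of Ank1, tested on its own, did not pass (log2 1.62, adjusted p = 0.299 by limma). Of the 76 genes, 3 (Tuba4a, Ube2d2a and Hic1) had the opposite sign under at least 1 alternative.

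**Figure D1:**
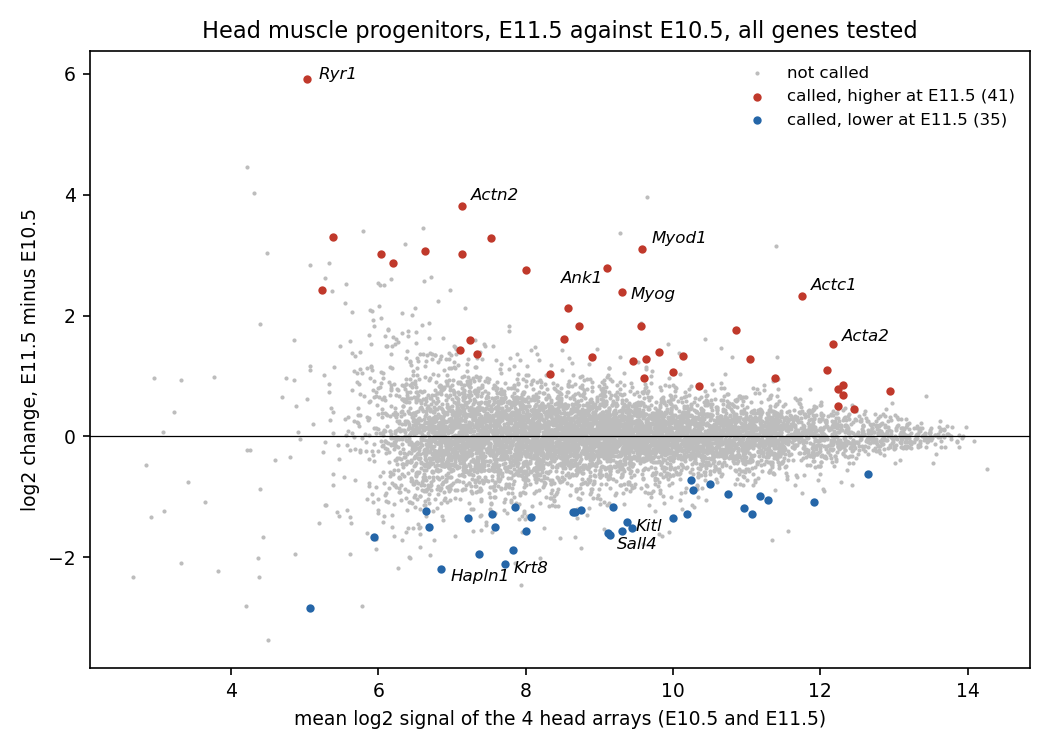
Log2 change in head (E11.5 minus E10.5, vertical axis) against the mean log2 signal of the 4 head arrays (horizontal axis) for the 7722 tested genes. Red points are the 41 genes called higher and blue points the 35 called lower at E11.5, and grey points were not called. Ryr1, at 5.92, lies highest, with E10.5 signals far below the median, and Actc1 (2.32) and Acta2 (1.52) lie towards the right, at high signal.

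The muscle determination factors divided into those that rose and those that did not pass. Myod1, which commits cells to the muscle fate, had signals of 319 and 216 at E10.5 and of 2156 and 2337 at E11.5. Both E11.5 arrays were far above both E10.5 arrays, a rise of 8.56-fold (log2 3.10 ± 0.30, SE from limma, n = 2 arrays per stage; adjusted p = 0.00119). Myog, the factor that drives differentiation of committed myoblasts, rose 5.23-fold, from 335 and 227 to 1581 and 1318 (log2 2.39 ± 0.36, adjusted p = 0.0162 by limma). Its stages did not overlap either. Both factors had been below the array median at E9.5, where Myod1 gave 56.9 and 96.5 and Myog 40.4 and 25.3. Myf5, the earliest factor of the family and the gene that marks these cells, did not pass: it gave 2294 and 2120 at E10.5 and 1787 and 1772 at E11.5 (log2 −0.31, 95% interval −0.76 to 0.14, adjusted p = 0.480). Its interval excludes a change of the size seen for Myod1 or Myog in either direction. Myf6 lay below the median on all 12 arrays and was not tested, with head signals between 6.62 and 16.6. The Mef2 factors, partners of this family, did not pass, with log2 changes of 0.42 for Mef2d, 0.36 for Mef2a and 0.21 for Mef2c. Of the 8 tested members of the list of myogenic factors and cofactors, 2 rose and 0 fell, against 0.531% and 0.453% of all tested genes. Their median change was 0.29, against 0.02 over all genes.

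**Figure D2:**
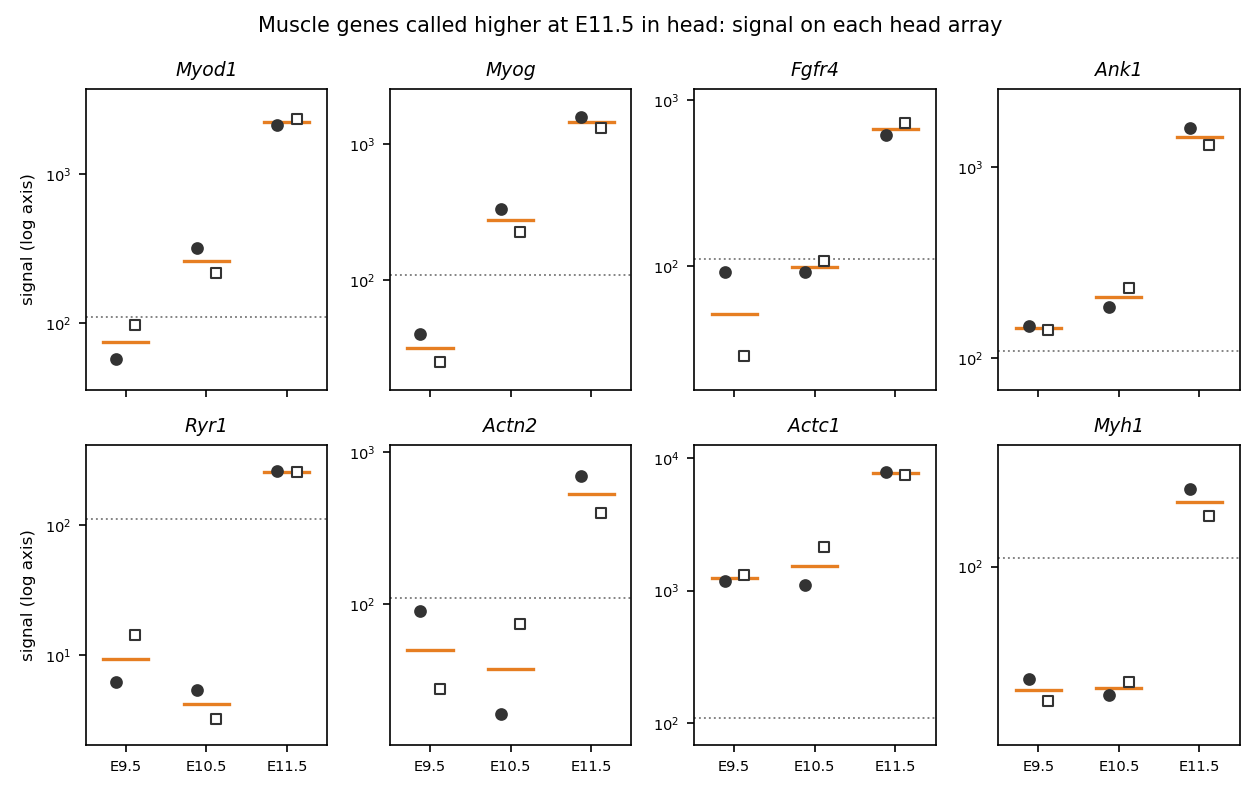
Signal on each head array (log axis, intensity units) at E9.5, E10.5 and E11.5 for 8 muscle genes called higher at E11.5. Filled circles are replicate 1, open squares replicate 2, orange bars the mean of the log2 signals and the dotted line the array median. In every panel both E11.5 arrays lie above all earlier ones, and in Myod1 and Myog the E10.5 arrays lie above the E9.5 arrays too.

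The promoters of some of these genes hold matches to E-box, CArG box or MEF2 motifs. The 250 bases before the start of 4 of the risen genes are shown 5′ to 3′, because they span the kinds of motif found. They come from RefSeq on GRCm38.p6: Myog at chr1:134289754-134290003 on the plus strand, Actn2 at chr13:12340733-12340982 on the minus strand, Actc1 at chr2:114052876-114053125 on the minus strand and Myh1 at chr11:67199852-67200101 on the plus strand. Capitals mark E-boxes (CANNTG) in Myog and Actn2, a CArG box in Actc1 and a MEF2 motif in Myh1. Only exact matches to the patterns sought are marked, and near matches are not.
Myog: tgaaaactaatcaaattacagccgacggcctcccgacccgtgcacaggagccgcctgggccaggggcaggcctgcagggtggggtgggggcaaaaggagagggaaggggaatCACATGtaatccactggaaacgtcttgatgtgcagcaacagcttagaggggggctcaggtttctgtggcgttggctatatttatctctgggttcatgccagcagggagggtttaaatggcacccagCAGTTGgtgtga
Actn2: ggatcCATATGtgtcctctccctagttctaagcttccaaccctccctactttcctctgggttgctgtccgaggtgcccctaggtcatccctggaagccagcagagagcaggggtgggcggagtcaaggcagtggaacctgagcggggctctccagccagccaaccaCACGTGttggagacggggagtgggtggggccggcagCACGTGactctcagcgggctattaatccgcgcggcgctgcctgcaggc
Actc1: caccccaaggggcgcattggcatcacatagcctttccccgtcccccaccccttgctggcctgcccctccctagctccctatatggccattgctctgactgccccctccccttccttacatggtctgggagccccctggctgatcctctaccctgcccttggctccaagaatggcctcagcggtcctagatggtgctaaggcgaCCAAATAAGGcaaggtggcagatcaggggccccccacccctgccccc
Myh1: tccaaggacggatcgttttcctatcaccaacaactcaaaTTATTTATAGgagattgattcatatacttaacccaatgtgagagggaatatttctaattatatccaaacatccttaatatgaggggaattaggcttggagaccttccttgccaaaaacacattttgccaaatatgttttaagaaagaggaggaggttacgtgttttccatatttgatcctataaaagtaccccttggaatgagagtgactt
In Myog the E-boxes start 138 and 12 bases before the transcription start, and in Actn2 245, 84 and 48 bases before it. The CArG box of Actc1, the kind of sequence that serum response factor binds, starts 47 bases before the start.

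Over the called genes, the E-box was no more frequent than elsewhere. Promoters were matched by symbol for 34 of the 41 higher genes, and 20 of them (58.8%) held CANNTG in this window, against 60.4% of all tested genes with a promoter. For the lower genes it was 10 of 27 (37%). The E-box variant CAGCTG, a subset of CANNTG, was in 14.7% of the higher, 11.1% of the lower and 13.5% of all tested genes. The MEF2 motif was in 2 of the 34 higher genes (5.88%), Myh1 and Aar2, in 0 of the 27 lower ones and in 1.94% of all. The CArG box was in 1 of the 34 (2.94%), 1 of the 27 (3.7%) and 1.51% of all. All motifs were sought on both strands, and a match says only that the letters occur in the window.

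The genes of the sarcomere lay mostly higher at E11.5, although few passed the test one by one. Actc1, the actin of embryonic and cardiac muscle, had signals of 1103 and 2147 at E10.5 and 7883 and 7491 at E11.5, a rise of 4.99-fold (log2 2.32 ± 0.41, adjusted p = 0.0300 by limma). Its E9.5 signals, 1176 and 1321, were in the range of those at E10.5. Myh1, a fast myosin heavy chain, rose from 25.3 and 29.2 to 230 and 173, at least 1.82-fold (log2 2.88 ± 0.50, adjusted p = 0.0268). Here and below, "at least" means that an array of the dimmer stage lay below the median of its array and was raised to that median before the fold was taken. Actn2, which crosslinks actin at the Z-disc, rose from 18.9 and 74.4 to 700 and 400, at least 4.82-fold (log2 3.82 ± 0.71, adjusted p = 0.0349). Ryr1, the calcium release channel of skeletal muscle, was close to the bottom of the range at E10.5, 5.44 and 3.28, and gave 257 and 254 at E11.5. The rise of Ryr1 was at least 2.33-fold. Its fitted change (log2 5.92 ± 0.78, adjusted p = 0.0130) rests on E10.5 signals far below the median, and was 1.22 with signals raised to the array median (adjusted p = 0.0458).

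By list, 12 thick filament genes (myosins and their binding proteins) were tested, of which 1 rose, 0 fell, 12 had positive changes and 10 lay wholly above at E11.5, with a median of 1.95. Of 11 thin filament genes (actins, troponins, tropomyosins) 1 rose and 0 fell, with a median of 1.47. Of 15 genes of the Z-disc and membrane scaffold 1 rose and 0 fell, with a median of 0.30. Of 8 genes of calcium release 1 rose and 0 fell, with a median of 0.99. None of 5 genes of the acetylcholine receptor and neuromuscular junction passed, with a median of 1.36, 4 at an unadjusted p under 0.05. On E10.5 replicates 1 and 2, 8 and 10 of the 12 thick filament genes lay below the array median. So did 7 and 7 of the 8 calcium release genes, and 4 and 4 of the 5 receptor and junction genes. Thin filament genes were less often so low, 4 and 3 of 11. The medians of these lists rest in part on such low signals and do not size a fold. Over these lists together, 51 of the 89 genes on the array could be tested, of which 3 passed the filter on low signals only through the E11.5 head arrays. Of the 51, 4 rose and 0 fell, against 0.531% and 0.453% of all tested genes. At an unadjusted p under 0.05, 29 were higher and 2 lower, against 9.03% and 7.87% of all tested genes. Wholly above at E11.5 lay 35 of the 51, against 24.0% of all tested genes. The other 38 of the 89 lay too low to test, among them Des, the muscle intermediate filament (94.8, 83.2, 114 and 50.6) and Myh2, a fast myosin (6.22 to 16.6). In a further list, that of muscle energy metabolism, 0 of 5 tested genes passed, 3 of the 5 had negative changes and the median was −0.13, and its untested members included Ckm, muscle creatine kinase (7.20 to 30.2).

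Several contractile genes lay well apart between the stages without passing. Myh3, the embryonic myosin heavy chain, gave 159 and 238 at E10.5 and 2381 and 1678 at E11.5 (log2 3.36 ± 1.14, adjusted p = 0.179 by limma). In the fit on the 6 head arrays alone it passed (adjusted p = 0.0256). Tnni1, slow troponin I, gave 25.96 and 30.8 and then 203 and 127 (adjusted p = 0.0592), and Tnnt2, cardiac troponin T, 43.1 and 110 and then 370 and 246 (adjusted p = 0.0737). Chrna1, a subunit of the muscle acetylcholine receptor, gave 17.6 and 49.7 and then 334 and 311 (log2 3.45 ± 0.83, adjusted p = 0.0776). In each of these 4 genes the stages did not overlap. Others moved little: the changes were −0.15 for Tpm3 and 0.22 for Tpm1, tropomyosins that non-muscle cells also make. Dmd, dystrophin, was lower at E11.5 with signals of 276 and 265 and then 159 and 116, but did not pass (adjusted p = 0.0631).

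**Figure D3:**
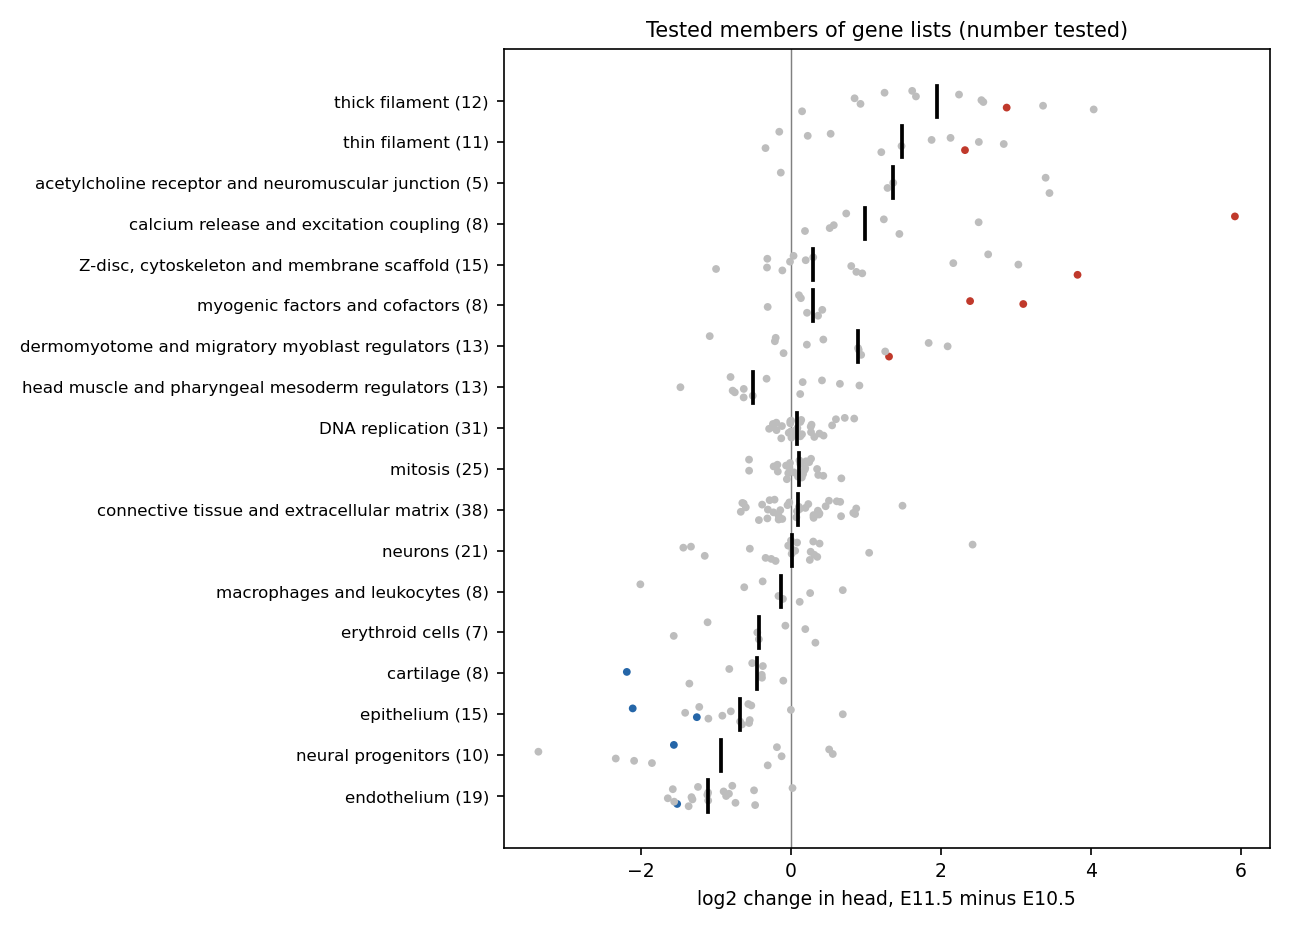
Log2 change in head (E11.5 minus E10.5) of the tested members of 18 gene lists, with the number tested in brackets. Each point is a gene, red if called higher, blue if called lower and grey if not called, and the black bar is the list's median. Thick filament genes have the highest median, 1.95, and endothelial genes the lowest, −1.10. On the E10.5 arrays 8 and 10 of the 12 thick filament genes lay below the array median.

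Several other single genes rose. Ank1, an ankyrin that links membranes to the cytoskeleton and has a form at the muscle calcium store, had signals of 186 and 235 at E10.5 and 1611 and 1304 at E11.5. The change of 6.94-fold had the smallest p of all genes (log2 2.80 ± 0.25, adjusted p = 0.000743 by limma). Another probe set of Ank1 gave a log2 change of 1.62 that did not pass (adjusted p = 0.299 by limma). Fgfr4, a fibroblast growth factor receptor of myoblasts, was below the median at E10.5 (91.8 and 107) and gave 613 and 728 at E11.5, at least 6.09-fold higher (log2 2.75 ± 0.41, adjusted p = 0.0162). It was the only one of 12 tested FGF pathway genes that passed, and Fgfr1 had a change of 0.29. Another probe set of Fgfr4 gave a log2 change of 1.36 that did not pass (adjusted p = 0.298 by limma). Erbb3, a receptor for neuregulins that is found on muscle precursors and on Schwann cells, rose 3.40-fold, from 1312 and 766 to 3171 and 3669 (log2 1.77 ± 0.24, adjusted p = 0.0130). The Schwann cell marker Sox10 lay wholly higher at E11.5, with 33.4 and 48.4 at E10.5 and 110 and 73.0 at E11.5, below the median on all 4 arrays, and did not pass (log2 1.15, adjusted p = 0.235 by limma). Its lowest value over the alternatives, −0.96, came from another probe set. Of the 5 tested Schwann cell and glial markers Erbb3 alone passed. Without Erbb3 the summed signal of the other markers was 937 and 1778 at E10.5 and 636 and 528 at E11.5, with Fabp7 and Mbp lower (log2 −1.85 and −1.56, neither passing) and Gfra3 higher (0.82, not passing). Cxcr4, a chemokine receptor of migrating myoblasts, rose 2.48-fold from 298 and 308 to 785 and 717 (adjusted p = 0.0358). Irs1, an adaptor of the insulin and IGF receptors, rose 1.73-fold from 3777 and 3585 to 6022 and 6745 (adjusted p = 0.0329), the only one of 14 IGF axis genes to pass.

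The other large rises were in genes not counted as muscle genes. Ap2b1, an adaptor of clathrin coats, rose from 177 and 188 to 994 and 634 (log2 2.12), with another probe set of opposite sign that did not pass. Dner, a neuronal transmembrane protein with EGF repeats, rose from 192 and 263 to 623 and 1021 (log2 1.83, adjusted p = 0.0358 by limma). Rprm, an inhibitor of cell cycle progression, rose from 411 and 394 to 1442 and 1421 (log2 1.83, adjusted p = 0.0458). Aar2, a splicing factor of the U5 particle (27.6 and 126 rising to 773 and 429), Ncs1, a calcium sensor (26.2 and 44.6 rising to 350 and 236), Prss2, a trypsin (15.997 and 32.8 rising to 248 and 140), and AI506816 (113 and 21.7 rising to 527 and 304) had log2 changes of 3.29, 3.07, 3.02 and 3.02. The other probe sets of Aar2 gave smaller changes that did not pass, 0.60 (adjusted p = 0.295) and 0.94 (adjusted p = 0.251). In these 4 genes at least 1 E10.5 array lay below the median. Acta2, the smooth muscle actin that early skeletal muscle also makes, rose 2.87-fold from 3028 and 2472 to 8576 and 7200 (adjusted p = 0.0429). No other of the 4 tested smooth muscle markers passed: Mylk, Myocd and Cnn2 had changes of −0.26, −0.34 and −0.15. The sign turned to 0.27 for Myocd without head E10.5 replicate 1 and to 0.074 for Cnn2 without head E10.5 replicate 2. Samhd1, chosen after its value was seen, lay above the median on all 4 arrays and had a large change that did not pass (244 and 171, then 2434 and 4124; log2 3.95 ± 0.91, adjusted p = 0.0667 by limma), and it passed in the fit on the 6 head arrays alone (adjusted p = 0.0092).

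None of the 13 tested regulators of head muscle and pharyngeal mesoderm passed, where 0.984% of all tested genes did, and their median change was −0.51. Of the 13, 7 lay wholly lower and 3 wholly higher at E11.5, against 20.7% and 24.0% of all tested genes. At an unadjusted p under 0.05 by limma, 3 were lower and 1 higher, against 7.87% and 9.03% of all tested genes. Tbx1, the T-box factor of the pharynx, gave 787 and 587 at E10.5 and 774 and 742 at E11.5, with an interval of −0.36 to 0.68 around a change of 0.16 (adjusted p = 0.784 by limma), which turned to −0.054 without head E10.5 replicate 2. Tcf21, a helix-loop-helix factor of branchial arch muscle, had a change of −0.32 (adjusted p = 0.844). Msc, its close relative, gave 1674 and 2194 and then 3557 and 3662 (log2 0.91 ± 0.31, adjusted p = 0.179). Isl1, a LIM factor of pharyngeal and cardiac progenitors, gave 5482 and 4702 and then 3080 and 3502 (log2 −0.63, adjusted p = 0.318). Lhx2, another LIM factor, gave 257 and 337 and then 109 and 103 (log2 −1.47, adjusted p = 0.298). So Msc lay wholly higher, Isl1 and Lhx2 wholly lower and Tbx1 overlapped, without any of them passing.

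Of 13 tested regulators of the dermomyotome and of migrating myoblasts, Cxcr4 alone passed, and the median was 0.89. Pax7, which marks muscle stem cells, was below the median at E10.5 (44.1 and 59.5) and above it at E11.5 (126 and 266), with a change of 1.84 ± 0.59 that did not pass (adjusted p = 0.156 by limma). Pax3 gave 335 and 255 and then 306 and 375 (log2 0.21, adjusted p = 0.789), so its stages overlapped. Met, the receptor that migrating myoblasts need, gave 40.0 and 20.6 and then 109 and 137 (adjusted p = 0.0866), and Meox2, a homeodomain factor of limb and somite muscle, 378 and 324 and then 790 and 535 (adjusted p = 0.0782). Of 10 tested genes of myoblast fusion and adhesion none passed. Cdh15, the cadherin of muscle, came nearest with 168 and 189 and then 432 and 486 (log2 1.36, adjusted p = 0.0624). Mymk, the fusion protein myomaker, lay below the median on all 12 arrays, with 11.5 and 2.69 at E10.5 and 70.6 and 61.1 at E11.5.

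No gene of the cell cycle lists passed. Over all tested genes 0.984% passed, a share at which lists of this size may hold none. For DNA replication this was 0 of 31 genes with a median of 0.08, for mitosis 0 of 25 with a median of 0.11, and for D cyclins, CDK inhibitors and growth arrest 0 of 16 with a median of 0.03. At an unadjusted p under 0.05 there were 4 higher and 1 lower, 2 higher and 2 lower, and 3 higher and 3 lower, in that order. Over all tested genes 9.03% were higher and 7.87% lower at that p. Mki67, a marker of cycling cells, gave 6152 and 5541 and then 6795 and 3909, with an interval of −0.61 to 0.25. Cdkn1a, the CDK inhibitor p21 that myoblasts switch on as they leave the cycle, gave 591 and 772 and then 2073 and 1485 (log2 1.38 ± 0.40, adjusted p = 0.122 by limma), and Cdkn1c, the inhibitor p57, 6604 and 6644 and then 9307 and 10178 (log2 0.56, adjusted p = 0.148). Both Cdkn1a and Cdkn1c lay wholly higher at E11.5. Other members of that list went down: Gadd45a had a change of −1.26 (adjusted p = 0.0782 by limma). The CDK inhibitor Cdkn1b had a change of −0.95 (adjusted p = 0.101).

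The genes that fell included markers of epithelium, neural progenitors and endothelium. None of the 35 falls passed without head E10.5 replicate 1 or without head E11.5 replicate 2, although all that are named kept their direction. Krt8, a keratin of simple epithelia, had signals of 527 and 360 at E10.5 and 116 and 88.0 at E11.5, at least 3.86-fold lower (log2 −2.11 ± 0.30, adjusted p = 0.0130 by limma). Epcam, an epithelial adhesion molecule, fell from 655 and 602 to 244 and 284, 2.38-fold (log2 −1.25 ± 0.20, adjusted p = 0.0178). Both were already lower at E10.5 than at E9.5, where Krt8 gave 1188 and 1167 and Epcam 1167 and 1247. Of 15 tested epithelial markers these were the 2 that passed, where 0.453% of all tested genes passed as lower, and 14 had negative changes (median −0.68). Of the 15, 13 lay wholly lower, against 20.7% of all tested genes. The summed signal of the 15 was 5074 to 6665 at E10.5 and 3209 to 3216 at E11.5. The 1 member with a positive change was Grhl2, an epithelial transcription factor (log2 0.69, adjusted p = 0.57). In bulk samples like these, fewer cells of a type and less RNA per cell cannot be told apart.

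Sox2, a factor of neural progenitors and of pharyngeal endoderm, fell 2.95-fold from 414 and 470 to 149 and 150 (log2 −1.56 ± 0.25, adjusted p = 0.0187 by limma). It was the only one of 10 tested neural progenitor markers to pass. Their median was −0.93, and their summed signal was 2609 and 4548 at E10.5 and 1939 and 2004 at E11.5. Fabp7 (471 and 1434, then 265 and 196) and Hes5 (193 and 1182, then 64.9 and 194) differed widely between the E10.5 arrays, both being higher on replicate 2. Of 21 tested markers of neurons none passed and the median was 0.02, and Tubb3, the neuronal tubulin, had a change of 0.00.

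Cldn5, the claudin of endothelial tight junctions, fell 2.86-fold, from 1339 and 1027 to 509 and 330 (log2 −1.52 ± 0.31, adjusted p = 0.0448 by limma). At E9.5 it had been lower, at 327 and 590. It alone passed among 19 tested endothelial markers, but 18 had negative changes, with a median of −1.10. Of the 19, 14 were lower at an unadjusted p under 0.05, against 7.87% of all tested genes. Wholly below at E11.5 lay 17 of the 19, against 20.7% of all tested genes. The summed signal of the 19 was 10890 to 11125 at E10.5 and 3851 to 6231 at E11.5. None of the 19 was below the median at E10.5, against 1 on E11.5 replicate 1 and 6 on replicate 2. The defining marker Pecam1 lay below the median on all 12 arrays, while Cdh5 gave 349 and 345 and then 345 and 180 (log2 −0.48, adjusted p = 0.598). Calcrl, a receptor of vessels for adrenomedullin (1598 and 1663, then 786 and 521; log2 −1.35), also fell, as did Fli1, an ETS factor of blood and vessels chosen after its value was seen (352 and 340, then 144 and 167; log2 −1.16, adjusted p = 0.0358). Clec1b, a lectin receptor of platelets, fell from 320 and 328 to 106 and 66.0 (log2 −1.95, adjusted p = 0.0379), at least 2.95-fold. Whether the share of such cells in the sort had a part in these falls was not tested. Of 7 tested erythroid markers and 8 of macrophages and leukocytes none passed. The summed erythroid signal was 19073 to 20332 at E10.5 and 19348 and 8598 at E11.5, so only E11.5 replicate 2 was low.

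**Figure D4:**
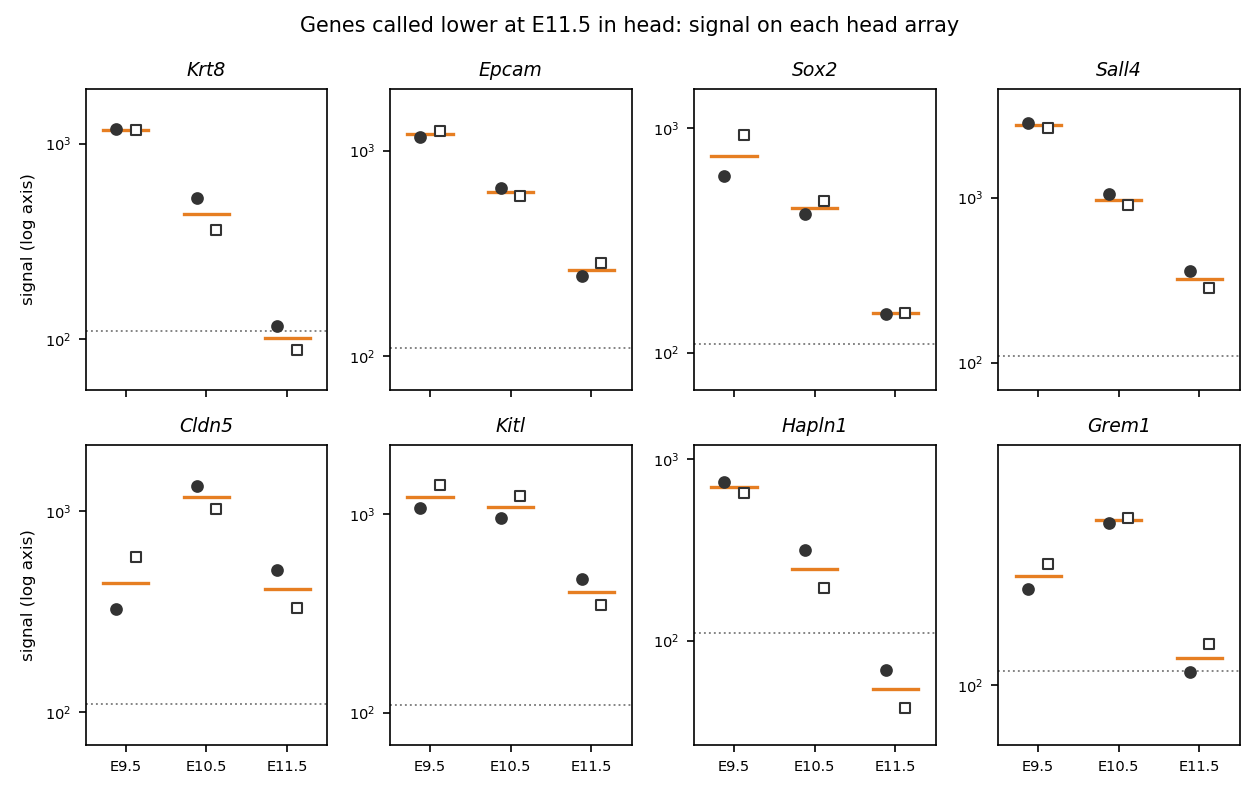
Signal on each head array (log axis, intensity units) at E9.5, E10.5 and E11.5 for 8 genes called lower at E11.5, with symbols, bars and dotted line as in the plot of the muscle genes. In each panel both E11.5 arrays lie below both E10.5 arrays. In Krt8, Epcam, Sox2, Sall4 and Hapln1 the E9.5 signals are the highest, while in Cldn5 and Grem1 the E10.5 signals are.

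The named genes that fell also included Sall4, Dach2, Zic5 and Kitl. Sall4, a zinc finger factor of pluripotent and early embryonic cells, fell 3.04-fold from 1048 and 898 to 359 and 283 (log2 −1.61 ± 0.26, adjusted p = 0.0187 by limma), after 2845 and 2647 at E9.5. Lin28a, another gene of early embryos, had the same fitted change, −1.61, without passing (adjusted p = 0.205). Of 10 tested early-embryo genes Sall4 alone passed, with a median of −0.12. At an unadjusted p under 0.05, 2 of the 10 were higher and 2 lower, against 9.03% and 7.87% of all tested genes. Dach2, a cofactor in the network of Pax and Eya factors of muscle, fell 2.52-fold from 417 and 441 to 157 and 184 (log2 −1.33). Zic5, a zinc finger factor of the dorsal neural tube, fell from 283 and 201 to 76.6 and 114 (log2 −1.35). Kitl, the ligand of the Kit receptor, fell 2.68-fold from 959 and 1234 to 471 and 349 (log2 −1.42 ± 0.22, adjusted p = 0.0165).

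In the Notch pathway 2 of 23 tested genes fell and 0 rose, against 0.453% and 0.531% of all tested genes, with a median of −0.07. Mfng, a fringe that modifies Notch receptors, went from 174 and 172 to 56.4 and 66.3 (log2 −1.50, adjusted p = 0.0495 by limma), and passed in 4 of its 24 alternatives and in 0 of the 12 that left out an array. Dll3, a divergent ligand, went from 110 and 108 to 29.5 and 40.1 (log2 −1.66, adjusted p = 0.0335), with all 4 arrays below the median, so that no fold is given and no change remained with signals raised to the median (−2.8e-05). Dll1, a ligand that holds muscle precursors back from differentiation, did not pass (465 and 537, then 771 and 657; log2 0.51). Among 22 genes of BMP, TGF-beta and activin signalling, Grem1, an antagonist of BMPs, alone passed: it fell at least 2.42-fold, from 285 and 295 to 109 and 130 (log2 −1.28, adjusted p = 0.0300). The ligand Bmp4 had a change of −0.97 without passing. Of these 22 genes, 9 lay wholly lower and 3 wholly higher at E11.5, against 20.7% and 24.0% of all tested genes. At an unadjusted p under 0.05 by limma, 6 were lower and 1 higher, against 7.87% and 9.03% of all tested genes. Among 11 retinoic acid pathway genes Tgm2, a transglutaminase induced by retinoic acid, alone passed and fell 2.94-fold (1331 and 891, then 385 and 356; log2 −1.56, adjusted p = 0.0162).

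In the matrix and cartilage lists the falls that passed were single genes. Hapln1, a link protein of hyaluronan matrices, fell at least 2.25-fold from 314 and 195 to 69.2 and 42.6 (log2 −2.19 ± 0.31, adjusted p = 0.0130 by limma). It was the 1 of 8 tested cartilage genes that passed. All 8 had negative changes, with a median of −0.45, and 6 lay wholly lower at E11.5, against 20.7% of all tested genes. Col2a1, the main cartilage collagen, had a change of −0.10. Of 38 tested genes of connective tissue none passed, with a median of 0.09. Nid1, a basement membrane linker, fell 2.43-fold (log2 −1.28, adjusted p = 0.0379), the 1 of 19 tested genes of integrins, laminins and basement membrane to pass. Slc2a1, the glucose transporter GLUT1, fell 2.27-fold (log2 −1.18, adjusted p = 0.0366) as the 1 of 19 genes of glycolysis and hypoxia. Further large falls were those of Colec12, a scavenger receptor (542 and 350, then 128 and 108), Pawr, a pro-apoptotic WT1 regulator (1074 and 916, then 319 and 323), and Vnn1, a pantetheinase (367 and 282, then 99.1 and 131), with log2 changes of −1.89, −1.63 and −1.50.

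Over the same day in trunk, the genes called in head mostly moved the same way by less. Of the 41 genes that rose in head, 39 had positive trunk changes and 33 lay wholly higher at E11.5 in trunk, where 21.6% of all tested genes did. Their median change was 1.52 in head and 0.54 in trunk. Of the 35 that fell, 27 had negative trunk changes and 21 lay wholly lower, against 23.1% of all tested genes, with medians of −1.29 in head and −0.24 in trunk. Since the genes were chosen for their head changes, the larger head medians are a description only. In trunk 2 genes passed (0.0259% of those tested), Postn, a matrix protein, and Nrk, a kinase of embryonic tissue, and Nrk rose in head as well (1460 and 1255 to 3738 and 2877 in head, 830 and 682 to 2797 and 2510 in trunk).

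**Figure D5:**
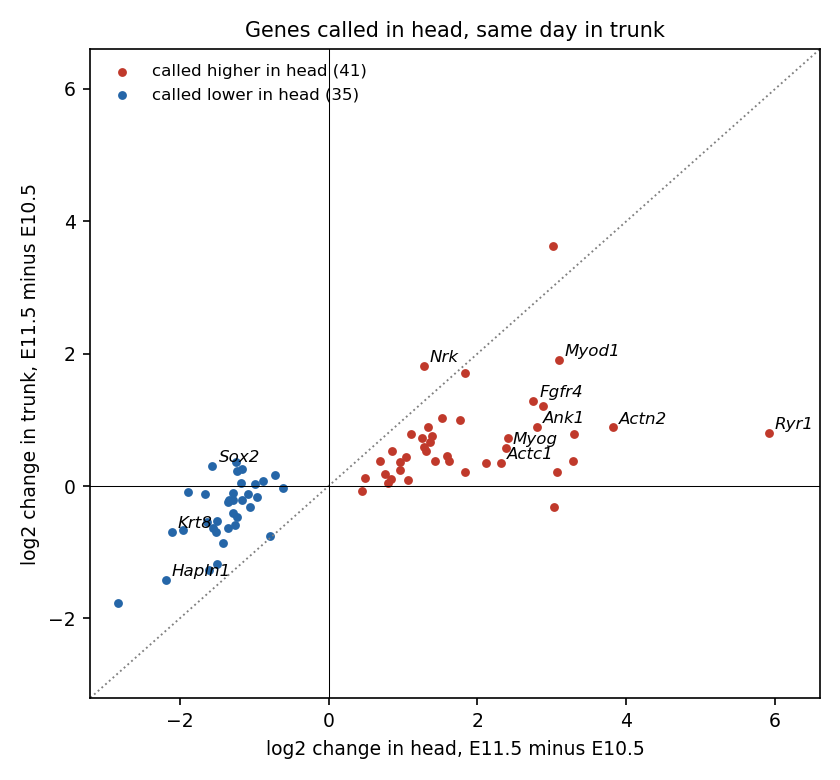
Log2 change from E10.5 to E11.5 in head (horizontal axis) and in trunk (vertical axis) for the 41 genes called higher (red) and the 35 called lower (blue) in head, with the line of equal change dotted. Most points lie between that line and the horizontal axis, Nrk lies above the line (1.28 in head, 1.82 in trunk), and Sox2 has a positive trunk change (0.31).

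The test of the difference between the head and trunk changes called 0 genes by limma (785 at an unadjusted p under 0.05, smallest adjusted p = 0.407), and 17 without head E10.5 replicate 2. So no change can be called particular to head. The trunk values of some genes named above, chosen after their values were seen, are given beside those of head. Ryr1 gave 129 and 93.2 at E10.5 and 270 and 135 at E11.5 in trunk, against 5.44 and 3.28 and then 257 and 254 in head, where the E10.5 signals are too low for the difference to be sized. Actc1 gave 5595 and 6067 and then 8272 and 6686 in trunk, which put the trunk at E10.5 well above the head and both tissues in one range at E11.5. Myog gave 607 and 690 and then 825 and 1127 in trunk, higher than head at E10.5 and lower at E11.5. Myod1 gave 226 and 334 and then 1198 and 879 in trunk, in the range of head at E10.5 and below it at E11.5. Ank1 gave 157 and 220 and then 388 and 308 in trunk, against 1611 and 1304 at E11.5 in head (difference 1.90 ± 0.35, unadjusted p = 0.000148). Sox2 gave 282 and 411 and then 415 and 428 in trunk (difference −1.87 ± 0.36, unadjusted p = 0.000219), and Sall4, whose E11.5 arrays lay below those of E10.5 in both tissues, 414 and 710 and then 236 and 217.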

How the data were processed

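Total RNA of sorted cells was amplified, labelled and hybridised to Affymetrix arrays, 12 in all. The deposited values are linear probe set signals (unit intensity) that the authors made with MAS5 in Affymetrix Expression Console, per the submitters' processing notes. The sources used here do not give any later normalization. The 10th to 99th percentiles differed between arrays by at most 0.035 on the log2 scale, so log2 was taken with no further normalization. Array number, not counting depth, limits the precision.

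The arrays held 22690 probe sets, including 64 controls that were dropped. By the platform annotation 20380 had 1 gene, 691 several and 1555 none, and only the first were used (12393 genes). Testing required a signal above the array's median on 2 or more of the 12 arrays. Where a gene had several probe sets, the one of highest mean stood for it, which left 7722 genes. Of the 76 called genes, 28 had other probe sets, of which 4 had one of opposite sign (Ap2b1, Tuba4a, Ube2d2a, Fyttd1) and 0 were called both ways.

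Differences were tested with limma 3.58.1 in R 4.3.3, fitting all 12 arrays with a mean for each of the 6 groups and an intensity trend (residual df 6, prior df 5.87). Tests were two-sided, and calls required an adjusted p (Benjamini-Hochberg) under 0.05. On simulated arrays of 7722 genes with 200 changed ones, this comparison found 44% of the changes set to 2-fold and 87.2% of those set to 4-fold, and 4.09% of its calls were false. The simulated noise was independent between genes and between arrays. Shifts shared by many genes on an array were therefore not simulated, and these shares do not cover them. Genes chosen for naming were the 15 largest changes each way among 72 called genes whose stages did not overlap and whose brighter stage lay above the median, the members of each described list with the smallest p (at most 4), and Myf5, Myod1, Myog, Myf6, Pax3, Pax7, Tbx1, Tcf21, Msc, Lhx2 and Isl1. Some list members so chosen, such as Mylpf and Flt1, did not pass and are not described above. Another gene of the rule is not reported here. Further list members named for their role, and the genes of the head and trunk comparison, were chosen after their values were seen. The members and the lists, written from textbook knowledge, were chosen with earlier results of these data known. Alternatives changed the normalization, filter, offset, probe sets, arrays, trend, replicate block and single arrays.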

Additional observations from a re-analysis of the deposited data

How the results depend on the processing

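The count of 76 genes changed most with the arrays used. Leaving out 1 array at a time gave 6 to 165 genes, and 0 to 17 for the difference between head and trunk changes. It was 50 with no filter on dim probe sets, 15 with the 6 head arrays only and 49 with the replicate block, of which 45 were among the 76. Alternatives chosen after seeing the data gave 4 with both E10.5 replicate 1 arrays left out and 132 with signals raised to the array median, which also gave 2 genes for the difference between tissues. The other settings gave 53 to 111, and the cause of these shifts was not tested. Without an intensity trend the split was 24 higher and 29 lower.

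The replicate numbers were not taken to pair the samples: same-numbered arrays had correlated deviations over 0.1 in 2 of 15 pairs of groups (range −0.30 to 0.17), although Xist was low on replicate 1 of both head and trunk at E10.5. Of the 39 named called genes, 38 kept their direction under every alternative, the exception being Dll3, at −2.8e-05 with signals raised to the array median, and 2 kept their call. Of 103 genes chosen for naming but not called, some of them not described above, 74 were never called. Signs turned for some genes that did not pass. Ncam1 was −0.12 without probe sets of shared sequence. Leaving out single arrays gave ranges that span 0 for Mrc1 (−0.99 to 0.24), Myocd (−0.96 to 0.27), Tbx1 (−0.054 to 0.37), Cx3cr1 (−0.11 to 1.49), Cnn2 (−0.38 to 0.074), Sox10 (−0.96 to 1.45) and Hba-x (−1.48 to 0.63), and without both E10.5 replicate 1 arrays Mrc1 was 0.24 and Myocd 0.27. The filter and the choice of probe sets were redone on the arrays kept. On the probe set tested, the stages of Sox10 did not overlap, so its value of −0.96 came from another probe set. With signals raised to the median Hba-x was 0.13, and Cdon and Sox10 were −2.8e-05. Signals below the median limit what can be said of folds, since 13 of the 41 higher and 11 of the 35 lower genes have a bound or no fold.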

Other observations

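Outside the muscle lists, genes of ribosome biogenesis leaned upward in head. Of 17 tested, 16 had positive changes and 9 lay wholly higher at E11.5, against 24.0% of all tested genes, with a median of 0.37 on the log2 scale and 0 called by limma (3 higher and 0 lower at an unadjusted p under 0.05). Polr1b, a subunit of RNA polymerase I, came nearest, with signals of 225 and 208 at E10.5 and 440 and 545 at E11.5 (log2 1.18 ± 0.26, adjusted p = 0.0608 by limma). Genes of axon and cell guidance leaned the other way: 20 of 27 had negative changes, with a median of −0.28 and 0 called. Wholly lower lay 10 of the 27, against 20.7% of all tested genes. At an unadjusted p under 0.05 there were 1 higher and 7 lower, against 9.03% and 7.87% of all tested genes. Genes of the respiratory chain did not lean, with 18 positive and 20 negative changes among 38 and a median of −0.02.

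In the Hox list, whose members mark axial position, 0 of 18 tested genes passed and the median was −0.16. Among 20 immediate early and heat shock genes, which respond to handling, 0 passed and the median was −0.07.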
